A study of Caenorhabditis elegans with 6 samples.

Results

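The 7 fatty acid desaturase genes of *C. elegans*, *fat-1* to *fat-7*, were taken by name from the RNA-seq tables of 3 strains, and all 7 are among the 20661 genes of the joined tables. RNA came from wild-type worms (N2, called WT), from *daf-2(e1370)* worms, called *daf-2(-)*, and from *daf-16(mgDf50);daf-2(e1370)* worms, called *daf-16(-);daf-2(-)* or the double mutant. Both mutant strains therefore carry the same *daf-2* allele, a reduced-function form of the insulin/IGF-1 receptor gene, and only the double mutant also carries a deletion in *daf-16*, the gene of the FOXO transcription factor. Each strain was grown as a mixed-stage culture on OP50 *E. coli* at 20 °C, and 2 replicates were sequenced per strain, which gives 6 libraries. The labels number the replicates but do not say that they came from separate cultures, so the p-values below measure the spread between these samples, which may be technical. Every stage and tissue was extracted together, so fewer cells of a type and less RNA per cell cannot be told apart.

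Fatty acid desaturases are membrane enzymes of the endoplasmic reticulum that place a double bond at a set position of a fatty acyl chain, with electrons passed on through cytochrome b5. *C. elegans* builds polyunsaturated fatty acids in a chain of such steps. FAT-5, FAT-6 and FAT-7 make monounsaturated fatty acids from saturated ones, FAT-2 turns oleic acid into linoleic acid, FAT-1 converts omega-6 into omega-3 fatty acids, and FAT-3 and FAT-4 act on either side of an elongation step on the way to the long polyunsaturated fatty acids. The intestine and the hypodermis are main sites of fat synthesis and storage in the worm.

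The value per gene and library is RPKM, a read number scaled by transcript length and by library size, so that levels of different genes are compared per length. *daf-16* was at 22.4 to 29.4 RPKM in the 4 WT and *daf-2(-)* libraries and at 4.6 and 6.44 in the double mutant. The spacing of low RPKM values puts the depth near 9150000 reads in *daf-2(-)* replicate 2 and between 13000000 and 15150000 reads in the other 5 libraries. Comparisons were fitted with limma on log2(RPKM + 1), and a call needed a fold change of 2 or more together with an unadjusted p of 0.05 or less. Adjusted p-values are Benjamini-Hochberg values over all genes. Over expressed genes, taken as those with a mean of 1 RPKM or more, the median log2 fold change was -0.28 in *daf-2(-)* against WT, 0.34 in the double mutant against *daf-2(-)* and 0.10 in the double mutant against WT. The members' changes are therefore also given relative to this median where it matters. The comparisons share libraries with each other, and each is read on its own.

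Of the 7 desaturase genes, *fat-5* rose in *daf-2(-)*, 8.1-fold against WT, and was lower in the double mutant than in *daf-2(-)*. The double mutant stood at 1.59-fold against WT for *fat-5*, which was not called. The 95% interval of that difference ran from -0.10 to 1.45 on the log2 scale. *fat-2* and *fat-6* exceeded their WT levels in *daf-2(-)* by 1.72-fold and 1.7-fold, under the fold threshold, and of this pair *fat-2* fell in the double mutant by the call rule. *fat-7*, the close paralog of *fat-6*, passed the test in no comparison. *fat-1*, *fat-3* and *fat-4* also passed it in none.

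**Figure D1:**
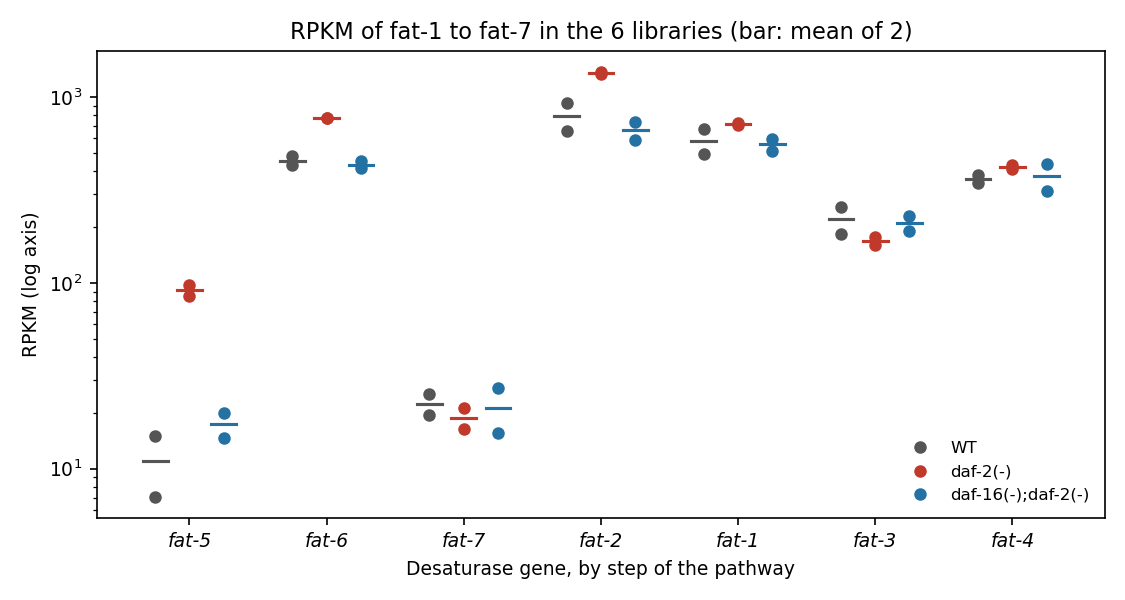
RPKM (log axis) of the 7 desaturase genes, ordered by step of the pathway, in the 2 libraries of each strain, with 1 point per library and a bar at the mean of 2. Both *daf-2(-)* points lie above all 4 others for *fat-5*, *fat-6*, *fat-2* and *fat-1*, and below all 4 others for *fat-3*.

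FAT-5 is a palmitoyl-CoA desaturase that makes palmitoleic acid. *fat-5* was at 7.08 and 15 RPKM in WT, at 97.3 and 85.2 in *daf-2(-)*, and at 14.6 and 20 in the double mutant. The *daf-2(-)* libraries stood far above the other 4, while the WT and double mutant libraries overlapped. Among all genes of a library, *fat-5* stood at rank 9277 and 6926 from the top in WT and at rank 1503 and 1585 in *daf-2(-)*. The log2 fold change in *daf-2(-)* against WT was 3.02 (SE 0.33, limma adjusted p = 0.00363, 95% interval 2.24 to 3.79). It was higher than that of 99.6% of all genes. Against *daf-2(-)*, *fat-5* in the double mutant fell by 2.34 on the log2 scale (SE 0.33, limma adjusted p = 0.00263, 95% interval -3.12 to -1.57).

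*fat-5* was also the least sampled of the 7 in WT. With the depth read from the low RPKM values, its level stands for about 118 and 215 reads in WT, 1455 and 860 in *daf-2(-)*, and 210 and 327 in the double mutant. Counting error alone was then 9.19% and 6.82% of the value in the WT libraries, against more than a doubling of the value from WT replicate 1 to WT replicate 2. The spread between the WT libraries was thus larger than counting error. The double mutant stood 0.67 above WT on the log2 scale (SE 0.33, limma adjusted p = 0.315). Without WT replicate 2, the library with the higher *fat-5* level, that difference became 1.16 and passed the call rule. The last exon bases of *fat-5* overlap the gene *twk-42* on the opposite strand over 2.54% of its exon length, and whether strand was used in counting is not given in the sources used here. *twk-42* was at 3.06 and 5.04 RPKM in WT, 5.68 and 5.53 in *daf-2(-)*, and 3.56 and 4.15 in the double mutant. The part of reads from *twk-42* in the *fat-5* values was not tested.

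FAT-6 and FAT-7 are stearoyl-CoA desaturases that make oleic acid, and they can stand in for each other. *fat-6* was at 430 and 481 RPKM in WT, 775 and 769 in *daf-2(-)*, and 415 and 451 in the double mutant. The *daf-2(-)* replicates lay close together and above every other library, and the WT and double mutant ranges overlapped. Its log2 fold change was 0.76 in *daf-2(-)* against WT (SE 0.13, limma adjusted p = 0.0122), a 1.7-fold difference. The double mutant stood at -0.83 against *daf-2(-)* (SE 0.13, limma adjusted p = 0.00408). Both differences exceeded the spread between replicates, and both were under the 2-fold threshold, so neither was called.

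*fat-7* was at 25.2 and 19.5 RPKM in WT, 21.2 and 16.5 in *daf-2(-)*, and 15.6 and 27.1 in the double mutant. All 3 strains overlapped, and the double mutant held both the lowest and the highest library. The log2 fold change was -0.24 in *daf-2(-)* against WT (SE 0.29, limma adjusted p = 0.585), with a 95% interval from -0.92 to 0.45. Between the double mutant and *daf-2(-)* it was 0.13, with an interval from -0.55 to 0.81. The interval against WT does not reach a doubling of *fat-7* and includes a change as large as a fall by 0.92 on the log2 scale. Reads of *fat-6* and *fat-7* could be assigned to either gene where the sequences are alike, and how such reads were treated is not given in the sources used here. The ratio of *fat-6* to *fat-7* RPKM, which a single scaling factor per library leaves unchanged, was 17.1 and 24.7 in WT, 36.6 and 46.7 in *daf-2(-)*, and 26.7 and 16.6 in the double mutant. The *daf-2(-)* ratios lay above the other 4. The *fat-6* to *fat-5* ratio went the other way, from 60.8 and 32.1 in WT to 7.96 and 9.03 in *daf-2(-)*, with 28.4 and 22.5 in the double mutant. Within the group that makes monounsaturated fatty acids, *fat-5* thus differed most between strains, *fat-6* less, and *fat-7* not beyond its spread.

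FAT-2 converts oleic acid to linoleic acid and feeds every later step. *fat-2* had the highest RPKM of the 7 genes in every library, with ranks between 176 and 247 among all genes. It was at 661 and 934 RPKM in WT, 1368 and 1342 in *daf-2(-)*, and 588 and 740 in the double mutant. The *daf-2(-)* libraries did not overlap the others, and WT and the double mutant overlapped. The log2 fold change in *daf-2(-)* against WT was 0.79 (SE 0.21, limma adjusted p = 0.0347, 95% interval 0.29 to 1.28), and relative to the median of expressed genes it was 1.06. *fat-2* fell by 1.04 on the log2 scale in the double mutant against *daf-2(-)* (SE 0.21, limma adjusted p = 0.00859). That value lies just past the fold threshold. Without double mutant replicate 1 it was -0.87, and without WT replicate 2 the difference of *daf-2(-)* from WT was 1.04, so in each comparison leaving out 1 library changed whether *fat-2* was called.

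FAT-1 is the omega-3 desaturase that gives the worm its omega-3 fatty acids. *fat-1* was at 493 and 675 RPKM in WT, 707 and 728 in *daf-2(-)*, and 516.5 and 599 in the double mutant. The *daf-2(-)* libraries were above the other 4 by a margin smaller than the gap between the WT replicates. Its log2 fold change was 0.31 in *daf-2(-)* against WT (SE 0.18, limma adjusted p = 0.254) and -0.37 in the double mutant against *daf-2(-)* (SE 0.18, limma adjusted p = 0.177). The interval against WT ran from -0.12 to 0.75. *fat-1* and *fat-2* are neighbours on chromosome IV, on the same strand and 5061 bp apart in the WBcel235 annotation. The *fat-2* to *fat-1* ratio was 1.34 and 1.38 in WT, 1.94 and 1.84 in *daf-2(-)*, and 1.14 and 1.24 in the double mutant, so the neighbours did not change in proportion.

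FAT-3 places a double bond before the elongation step that leads to the long polyunsaturated fatty acids, and FAT-4 places the next one after it. *fat-3* was at 184 and 257 RPKM in WT, 177 and 161 in *daf-2(-)*, and 190 and 229 in the double mutant. It was the one member with both *daf-2(-)* libraries below all others. The log2 fold change was -0.37 in *daf-2(-)* against WT (SE 0.19, limma adjusted p = 0.205) and 0.30 in the double mutant against *daf-2(-)* (SE 0.19, limma adjusted p = 0.275). Relative to the median of expressed genes, these values were -0.09 and -0.03.

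*fat-4* was at 347 and 381 RPKM in WT, 432 and 413 in *daf-2(-)*, and 314 and 438 in the double mutant. *daf-2(-)* lay above WT, and the double mutant spanned both. Its log2 fold change was 0.21 in *daf-2(-)* against WT (limma adjusted p = 0.424) and -0.19 in the double mutant against *daf-2(-)* (limma adjusted p = 0.485). *fat-4* and *fat-3* also lie next to each other on chromosome IV, on the same strand with 796 bp between them. The *fat-4* to *fat-3* ratio was 1.88 and 1.49 in WT, 2.45 and 2.57 in *daf-2(-)*, and 1.66 and 1.92 in the double mutant. *fat-6* is also on chromosome IV, and *fat-5* and *fat-7* are on chromosome V.

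In *daf-2(-)* against WT, limma called 1 of the 7 genes higher, against 4.84% of all genes, and 0 lower, against 7.78% of all genes. With the adjusted p in place of the unadjusted one, the same 1 gene was called, against 4.54% of all genes higher and 7.15% lower. An unadjusted p under 0.05 was reached by 3 of the 7, all higher (*fat-2*, *fat-5* and *fat-6*). The same 3 passed with that p and a fold of 1.5, beside 2006 higher and 4555 lower of all 20661 genes. The median log2 fold change of the 7 was 0.31, beside -0.11 over all genes. The ranges of the strains did not overlap for 6 of 7 genes, *fat-7* being the exception, beside 64.5% of all genes, so that this count is not far from the background. The double mutant against *daf-2(-)* had 2 of 7 called lower (*fat-2* and *fat-5*), against 5.65% of all genes, and 0 higher, against 15.8%. With the adjusted p the same 2 were called lower, against 5.46% of all genes, and 0 higher, against 15.5%. An unadjusted p under 0.05 was reached by *fat-2*, *fat-5* and *fat-6*, all 3 lower. With that p and a fold of 1.5, 5607 of all genes were higher and 2102 lower. The median of the 7 was -0.37, beside 0.15 over all genes, and 5 of 7 did not overlap, beside 63.2% of all genes.

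The double mutant was compared with WT to see what remained of the difference once *daf-16* was also lost. Limma called 0 of 7 genes in either direction, and 0 reached an unadjusted p under 0.05. Of all genes, 1.42% were called higher and 0.736% lower in that comparison, and 0.116% and 0.0387% with the adjusted p. With the unadjusted p and a fold of 1.5, 1843 of all 20661 genes were higher and 546 lower. The 2 strains overlapped for all 7 desaturase genes, while 48.1% of all genes did not overlap. The log2 fold changes lay between -0.25 for *fat-2* and 0.03 for *fat-4*, apart from the 0.67 of *fat-5*. The intervals still allow a difference. For *fat-5* the interval ran from -0.10 to 1.45, for *fat-2* from -0.75 to 0.24, and for *fat-6*, the most precise, from -0.39 to 0.25.

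**Figure D2:**
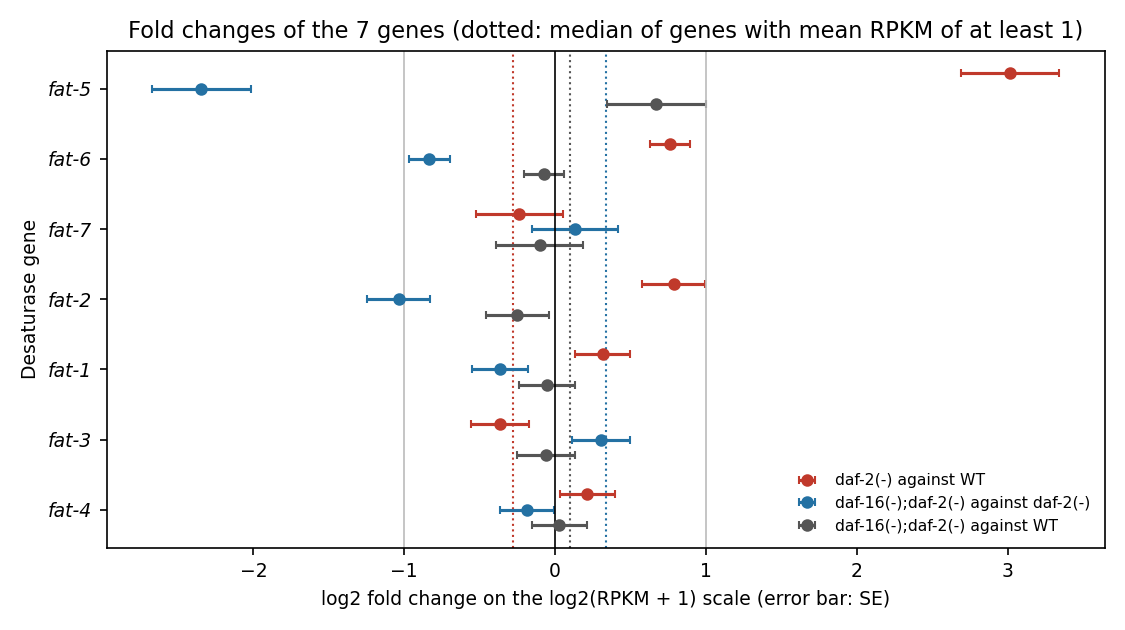
Log2 fold change on the log2(RPKM + 1) scale of each desaturase gene in the 3 comparisons, with SE as error bar, dotted lines at the median of expressed genes (a mean of 1 RPKM or more), and grey lines at a 2-fold change. *fat-5* lies at 3.02 and -2.34, past the 2-fold lines, *fat-2* and *fat-6* lie near those lines, and *fat-7* stays within 1 SE of 0.

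Of the 7 genes, *fat-1*, *fat-2*, *fat-3*, *fat-4* and *fat-6* were abundant in every library, with a lowest value of 161 RPKM, and *fat-5* and *fat-7* were at 97.3 RPKM at most. Summed over the 7 genes, deposited RPKM was 2147 and 2762 in WT, 3577 and 3514 in *daf-2(-)*, and 2053 and 2505 in the double mutant. The *daf-2(-)* sums lay above the other 4, mostly through *fat-2* and *fat-6*, since *fat-5* adds little to the sum. After quantile normalization the *daf-2(-)* sums, 2886 and 2880, fell within the WT range of 2454 to 2935, while median-ratio scaling kept them apart, at 3907 and 4478 against 2119 and 2566. *fat-2* took 30.8% and 33.8% of the sum in WT, 38.2% in each *daf-2(-)* library, and 28.6% and 29.6% in the double mutant. The share of *fat-5* was 0.33% and 0.543% in WT, 2.72% and 2.42% in *daf-2(-)*, and 0.712% and 0.799% in the double mutant. The share of *fat-3* went down to 4.94% and 4.58% in *daf-2(-)*, from 8.58% and 9.29% in WT, and was 9.24% and 9.13% in the double mutant. The *daf-2(-)* shares of all 7 genes lay outside the range of the other 4 libraries, above it for *fat-2*, *fat-5* and *fat-6* and below it for *fat-1*, *fat-3*, *fat-4* and *fat-7*. The shares of a library add up to the whole, so these are not 7 separate changes, and no background was computed for this count. The mean RPKM of *fat-1* and *fat-4* was higher in *daf-2(-)* than in WT, at 718 against 584 and 422.5 against 364, although their shares were lower. The combined share of *fat-5*, *fat-6* and *fat-7* was 21.5% and 18.7% in WT, 25% and 24.8% in *daf-2(-)*, and 21.7% and 19.9% in the double mutant.

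**Figure D3:**
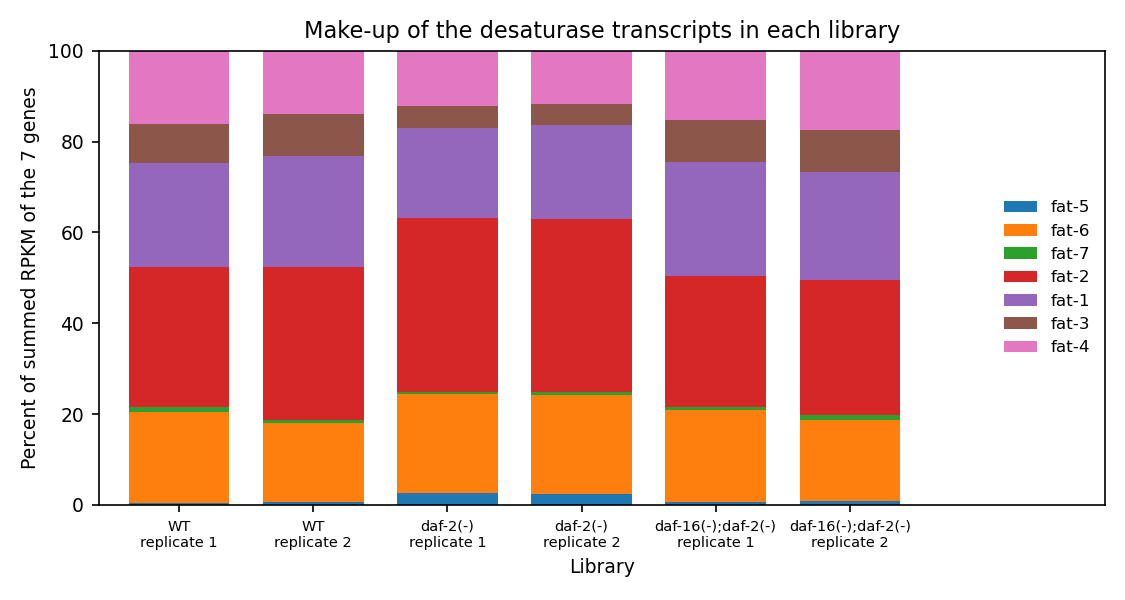
Share (percent) of each desaturase gene in the summed RPKM of the 7 genes, with 1 bar per library. *fat-2* takes 38.2% in both *daf-2(-)* libraries and 28.6% to 33.8% in the other 4, and the *fat-5* segment is visible mainly in *daf-2(-)*, at 2.72% and 2.42%.

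Shares and ratios between members are unchanged by a single factor per library, such as median-ratio scaling, but not by quantile normalization, which acts on each value by its rank. The largest shift among the ratios computed, beside that with *fat-5*, was *fat-2* to *fat-3*, an early against a later step, which was 3.59 and 3.64 in WT, 7.75 and 8.35 in *daf-2(-)*, and 3.1 and 3.24 in the double mutant. The *fat-2* to *fat-6* ratio stayed between 1.42 and 1.94 in all 6 libraries, and *daf-2(-)*, at 1.77 and 1.75, lay within the WT range of 1.54 to 1.94. These ratios were chosen after the levels had been seen and carry no test. With 2 libraries against 2, an exact two-sided permutation test cannot give a p below 0.333.

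The order of the levels was the same in WT and the double mutant, from *fat-2* through *fat-1*, *fat-6*, *fat-4*, *fat-3* and *fat-7* down to *fat-5*. In *daf-2(-)* it was *fat-2*, *fat-6*, *fat-1*, *fat-4*, *fat-3*, *fat-5* and *fat-7*. Neighbours in that order did not overlap in *daf-2(-)*. In WT, *fat-2* and *fat-1* overlapped, and in the double mutant *fat-2* with *fat-1*, *fat-6* with *fat-4*, and *fat-7* with *fat-5*. The exchange of *fat-5* and *fat-7* was large, since the mean *fat-7* level was 2.02 times that of *fat-5* in WT, and the mean *fat-5* level was 4.85 times that of *fat-7* in *daf-2(-)*. The exchange of *fat-6* and *fat-1* was small, with *fat-6* at 1.08 times *fat-1* in *daf-2(-)*.

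The scaling of the libraries changed the calls on *fat-2* and *fat-6* and not those on *fat-5*. The scaling factors of the median-ratio method were 0.785 for *daf-2(-)* replicate 2 and 0.915 to 1.18 for the others, so the typical gene had a lower RPKM in *daf-2(-)*. With that scaling, *fat-2* and *fat-6* were called higher in *daf-2(-)* against WT, at 1.09 and 1.06, beside *fat-5* at 3.31. With quantile normalization, which gives every library the same distribution of values, *fat-2* and *fat-6* shrank to 0.22 and 0.33, *fat-5* was at 3.12, and *fat-1* and *fat-4* changed direction, to -0.17 and -0.07. For the double mutant against *daf-2(-)*, *fat-5* was at -2.76 and -2.6 under the 2 methods, *fat-2* at -1.47 and -0.47, and *fat-6* at -1.26 and -0.40. The median over the 7 genes was 0.62 and 0.051 in *daf-2(-)* against WT, and -0.79 and -0.34 for the double mutant against *daf-2(-)*. After quantile normalization both medians were the values of *fat-7*, whose own direction had changed, so the sign of the median says little about the 7 genes as a set. *fat-3* kept a negative sign in *daf-2(-)* against WT, at -0.07 and -0.49, and *fat-7* was at 0.05 under both.

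**Figure D4:**
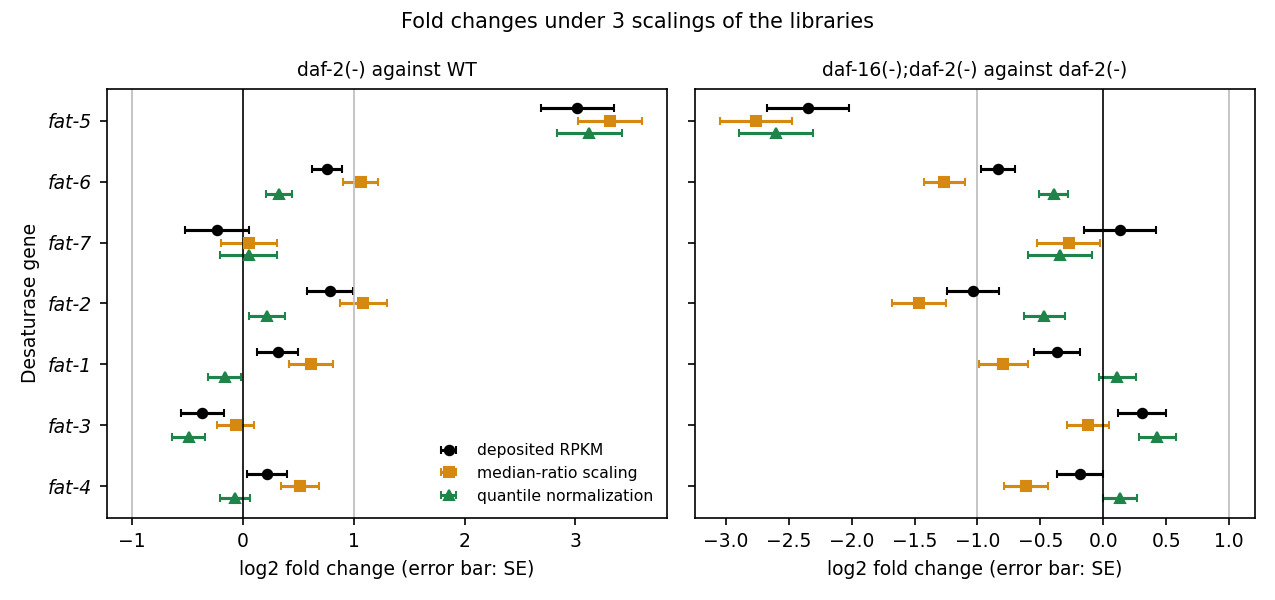
Log2 fold change of each desaturase gene with SE as error bar, from deposited RPKM, after median-ratio scaling and after quantile normalization, for *daf-2(-)* against WT and for the double mutant against *daf-2(-)*, with grey lines at a 2-fold change. *fat-5* stays past the 2-fold lines under all 3, from 3.02 to 3.31 and from -2.76 to -2.34, while *fat-2* and *fat-6* cross these lines with the scaling.

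The desaturases work beside the enzymes that make and lengthen their substrates. Of 14 genes for fatty acid synthesis and elongation, limma called 0 higher and 1 lower in *daf-2(-)* against WT, and 1 higher and 0 lower in the double mutant against *daf-2(-)*. After median-ratio scaling these counts were 1 and 0, and 1 and 3, with *elo-8* called higher in the first comparison, and *fasn-1* higher and *let-767*, *elo-5* and *elo-6* lower in the second. Both calls on the deposited RPKM were *fasn-1*, the fatty acid synthase that makes palmitic acid. *fasn-1* was at 48.5 and 35.4 RPKM in WT, 22 and 14.8 in *daf-2(-)*, and 64.2 and 44.1 in the double mutant, so that the *daf-2(-)* libraries lay below the other 4. It fell by 1.15 on the log2 scale in *daf-2(-)* against WT (SE 0.27, limma adjusted p = 0.0247) and rose by 1.51 in the double mutant against *daf-2(-)* (SE 0.27, limma adjusted p = 0.00579). Against WT the value was -0.87 after median-ratio scaling and -0.86 after quantile normalization, which are not called. It was also not called without WT replicate 1, at -0.93, or without *daf-2(-)* replicate 2, at -0.88. The rise in the double mutant was called under both, at 1.09 and 1.07. *fasn-1* thus moved in the opposite direction to *fat-5*, *fat-2* and *fat-6*. The median log2 fold change of the 14 genes was 0.00 in *daf-2(-)* against WT, where its sign turned on the scaling (0.27 after median-ratio scaling, -0.24 after quantile normalization), and -0.15 in the double mutant against *daf-2(-)*. None of the 4 genes for electron transfer, which hold the cytochromes b5 and their reductases, was called by limma on the deposited RPKM in any comparison. After median-ratio scaling, and with a fold of 1.5, 1 was called lower in the double mutant against *daf-2(-)*. That gene, *cytb-5.1*, had an unadjusted p under 0.05 in each of the comparisons with *daf-2(-)*.

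Of 10 genes known to act on desaturase expression or on membrane fluidity in *C. elegans*, 0 were called higher and 1 lower in *daf-2(-)* against WT, and 2 higher and 0 lower in the double mutant against *daf-2(-)*. *nhr-25*, a nuclear receptor of the epidermis, was at 10.8 and 8.56 RPKM in WT and at 4.95 and 3.39 in *daf-2(-)*, and fell by 1.06 on the log2 scale (SE 0.25, limma adjusted p = 0.0241). *nhr-66*, a partner of NHR-49, and *iglr-2*, a partner of the membrane fluidity sensor PAQR-2, rose in the double mutant against *daf-2(-)* by 1.02 (limma adjusted p = 0.00698) and 1.18 (limma adjusted p = 0.00379). After median-ratio scaling these 3 values were -0.81, 0.61 and 0.76, and after quantile normalization -0.86, 0.50 and 0.79, none of them called. *nhr-25* was also not called without WT replicate 1 or without *daf-2(-)* replicate 2, at -0.90 and -0.84. Without *daf-2(-)* replicate 2 neither *nhr-66* nor *iglr-2* was called, at 0.87 and 0.94, and without double mutant replicate 1 *nhr-66* was not, at 0.86. The counts of the list depended on the scaling. After median-ratio scaling they were 1 higher and 0 lower in *daf-2(-)* against WT, and 0 higher and 2 lower in the double mutant against *daf-2(-)*. After quantile normalization they were 0 and 0, and 0 and 2. The 2 called lower were *nhr-80* and *acdh-11*, and the 1 called higher was *acdh-11*. The lists were written with earlier results of these data known.

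The best known activators of *fat-5*, *fat-6* and *fat-7* were themselves not called on the deposited RPKM. *nhr-49*, a nuclear receptor that controls fat use and desaturation, was at 50.6 and 50 RPKM in WT, 54.1 and 45.7 in *daf-2(-)*, and 58.9 and 51.6 in the double mutant. *daf-2(-)* overlapped both other strains. *nhr-80*, a nuclear receptor that acts on the stearoyl-CoA desaturase genes, was at 8.22 and 9.67 in WT, 14.5 and 11.7 in *daf-2(-)*, and 7.16 and 8.58 in the double mutant. *daf-2(-)* was above the other 4 libraries, with a log2 fold change of 0.50 against WT (limma adjusted p = 0.133) and -0.66 in the double mutant against *daf-2(-)* (limma adjusted p = 0.0502). In the latter comparison *nhr-80* was called lower after median-ratio scaling, at -1.05, and after quantile normalization, at -1.06. *sbp-1*, the worm homologue of SREBP, was at 0.07 and 0.14 in these comparisons. *mdt-15*, a Mediator subunit that binds SBP-1 and NHR-49, was at -0.05 and 0.34. The directions of *nhr-49*, *sbp-1* and *mdt-15* in the double mutant against *daf-2(-)*, all positive on the deposited RPKM, were negative with both other scalings, at -0.28, -0.25 and -0.08 after median-ratio scaling.

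**Figure D5:**
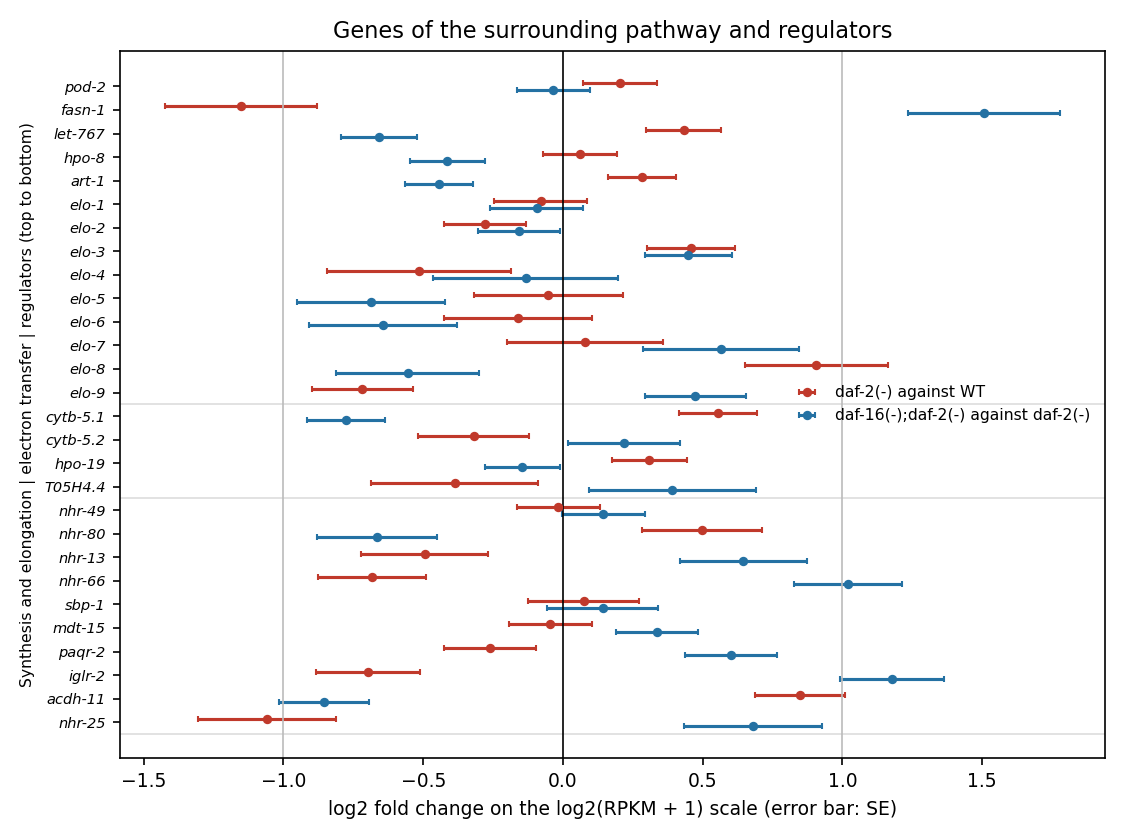
Log2 fold change on the log2(RPKM + 1) scale, with SE as error bar, of the genes for synthesis and elongation, electron transfer and regulation, in *daf-2(-)* against WT and in the double mutant against *daf-2(-)*, with grey lines at a 2-fold change. *fasn-1* lies past these lines in both comparisons, at -1.15 and 1.51, and most other genes lie between them.

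The RNA levels of tissue and stage markers differed between the strains as well. Whether the make-up of the cultures differed was not tested. Of 10 germline and oocyte markers, 8 were called lower in *daf-2(-)* than in WT and all 10 higher in the double mutant than in *daf-2(-)*. After median-ratio scaling these counts were 6 and 9, in the same directions. Their summed RPKM was 1016 and 1022 in WT, 345 and 442 in *daf-2(-)*, and 1567 and 2227 in the double mutant. Of 9 intestine markers measured, 1 (*ges-1*, a gut esterase) was called higher in *daf-2(-)* against WT and the same 1 lower in the double mutant than in *daf-2(-)*. In the latter comparison, 3 were called lower after median-ratio scaling and 2 after quantile normalization. The intestine sums were 4889 and 5998 in WT, 6336 and 7631 in *daf-2(-)*, and 3460 and 4966 in the double mutant, so they were highest in *daf-2(-)*, as the desaturase sum was. The gene *asp-1* made up the largest part of each sum. It was at 2816 and 3463 RPKM in WT, 3972 and 4783 in *daf-2(-)*, and 1872 and 2674 in the double mutant. In *daf-2(-)* against WT, 8 of the 9 markers had a positive log2 fold change, and *mtl-2* was at -0.41. Of 8 hypodermis markers, 1 was called higher and 3 lower in *daf-2(-)* against WT. In the double mutant against *daf-2(-)*, 3 were called higher and 1 lower. After median-ratio scaling each of these comparisons had 1 higher and 1 lower. The hypodermis sums were 1539 to 1944 in WT, 1312 to 1373 in *daf-2(-)* and 1377 to 1762 in the double mutant.

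Of 6 muscle markers, 1 was called higher in *daf-2(-)* against WT and 2 lower in the double mutant than in *daf-2(-)*. After median-ratio scaling these counts were 2 and 4, and after quantile normalization 0 and 1. The muscle sums were 2394 and 2535 in WT, 3777 and 5231 in *daf-2(-)*, and 2185 and 2504 in the double mutant. On the deposited RPKM, limma called 0 of 8 sperm markers and 0 of 5 measured yolk genes in these comparisons. An unadjusted p under 0.05 was reached by 3 and 1 sperm markers and by 1 and 1 yolk genes. In *daf-2(-)* against WT, 2 sperm markers were called higher under each of the other 2 scalings. With quantile normalization, 1 yolk gene was called lower there, and 2 were called higher in the double mutant than in *daf-2(-)*. No marker was listed at 0 in any library except 1 sperm gene in double mutant replicate 2. The part of tissue and stage make-up in the desaturase values was not tested. The intestine markers had a median log2 fold change of 0.42 in *daf-2(-)* against WT and -0.45 in the double mutant against *daf-2(-)*. *ges-1* had the largest changes among them, at 1.84 and -2.29, and *fat-5* was at 3.02 and -2.34. *fat-2* and *fat-6* were at 0.79 and 0.76 in the first of these comparisons and at -1.04 and -0.83 in the second.

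The profile of each member over the 6 libraries was set against those of 8310 other genes with a mean of 10 RPKM or more, as the root-mean-square difference of log2(RPKM + 1) after centring each gene on its own mean. The profile of *fat-5* had few close matches. The nearest were *ugt-41*, a putative UDP-glucuronosyltransferase, at 0.22, *asns-2*, a putative asparagine synthetase, at 0.30 and *F23F12.12* at 0.32. *ugt-41* was at 21 and 26.3 RPKM in WT, 213 and 196 in *daf-2(-)*, and 28.5 and 47.6 in the double mutant. For *fat-6* the nearest genes were *rmd-2*, *dhs-14* and *C29F7.2*, at 0.02 to 0.04. For *fat-2* they were *cdr-6*, *K09C4.5* and *ZK185.5*, at 0.04 to 0.05.

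The genes nearest to *fat-1* were *ZK899.2*, *spl-1* and *F23C8.6*, at 0.03 to 0.06, and those nearest to *fat-4* were *Y48A6B.7*, *cTel55X.1* and *Y43F8C.13*, at 0.03 to 0.05. For *fat-3* they were *elc-1*, *mtl-2* and *F20D1.1*, at 0.07 to 0.08, of which *mtl-2*, a metallothionein, is on the list of intestine markers. For *fat-7* they were *nlp-24*, *F46G11.6* and *gst-35*, at 0.06 to 0.08. These distances describe 6 libraries that share strains and depth, and a small distance is reached by many genes where the profile is flat. Among the members themselves, *fat-1* and *fat-4* (0.14) and *fat-2* and *fat-6* (0.15) were most alike, and *fat-3* and *fat-5* least (1.46).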

How the data were processed

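The authors prepared TruSeq RNA libraries, removed adaptors from the reads, used CLC Genomics Workbench to align them to WS230 with its annotation, and deposited 1 table of RPKM per strain. The submitters' processing notes name CASAVA 1.8.2. RPKM keep no counts, so the beta-binomial test of the study was not run. Its thresholds were kept. The deposited RPKM values of the *daf-2(-)* table write large values with commas, which were removed.

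The 3 tables were joined by gene name. A gene absent from a table was set to 0 (2499 genes), and 6 names found on more than one line were left out. All 20661 genes were fitted with limma 3.58.1 in R 4.3.3 on log2(RPKM + 1), with a trend, in 1 fit of 6 libraries (3.86 prior and 3 residual degrees of freedom), after a check on simulated data. Fold changes are on that scale, which understates changes of low genes. Figures were drawn with matplotlib 3.10.9 in Python 3.11.15. Depth was estimated from the steps between low RPKM values, and read numbers from depth and exon length, so both are approximate. Counting error covers sampling of reads only.

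The named genes are the 7 desaturase genes, each listed pathway or regulator gene called in a comparison, *nhr-49*, *nhr-80*, *sbp-1*, *mdt-15*, *daf-16*, *asp-1*, *ges-1* and *twk-42*, and the 3 genes nearest to each member. *asp-1*, *ges-1* and *twk-42* were added after their values were seen. The members and lists were chosen with earlier results of these data known. Lists covered synthesis and elongation, electron transfer, regulators, and markers of intestine, hypodermis, germline and oocyte, sperm, yolk and muscle. The markers *opt-2* and *vit-3* were not matched by name.

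The WBcel235 annotation, another build than WS230, served for exon lengths, strands, distances and overlaps, with 80.2% of gene names matched, and no coordinates are given. Alternatives were pseudocounts of 0.1 and 0.5, a filter at a mean RPKM of 1, median-ratio scaling, quantile normalization, adjusted p, a fold of 1.5, limma without the trend, separate fits for each pair of strains, the ratio of mean RPKM, a replicate block and each library left out.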

Additional observations from a re-analysis of the deposited data

How the results depend on the processing

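The 7 genes gave 343 comparisons of a fold change with an alternative, of which 314 kept direction and call, 22 changed direction, 5 gained a call and 2 lost one. The ratio of mean RPKM carries no call, and it was counted as kept where it had the same direction and lay within 1 SE. The fold of 1.5, which added calls on *fat-2* and *fat-6*, is not in this tally. *fat-5* kept its calls in *daf-2(-)* against WT (2.52 to 3.51 with each library left out) and in the double mutant against *daf-2(-)* (-2.56 to -2.13) under every alternative run. The count called higher in *daf-2(-)* was 3 (*fat-2*, *fat-5*, *fat-6*) under median-ratio scaling and with a fold of 1.5, and 1 to 2 with a library left out, 2 without WT replicate 2. The count called lower in the double mutant against *daf-2(-)* was 3 (*fat-2*, *fat-5*, *fat-6*) under median-ratio scaling and with a fold of 1.5. It was 1 with quantile normalization (*fat-2* at -0.47) and 1 to 2 with a library left out, 1 without double mutant replicate 1. In the double mutant against WT, 0 to 1 genes were called higher with a library left out. Directions changed for *fat-1* and *fat-4* with quantile normalization (*daf-2(-)* against WT, -0.17 and -0.074, and double mutant against *daf-2(-)*, 0.11 and 0.13). They changed for *fat-7* under median-ratio scaling (0.051 and -0.27) and quantile normalization (0.0505 and -0.34), and with median-ratio scaling for *fat-3* in the double mutant against *daf-2(-)* (-0.12) and *fat-4* in the double mutant against WT (-0.10). With a library left out, *fat-4* ran from -0.43 to 0.054 and *fat-7* from -0.25 to 0.52 in the double mutant against *daf-2(-)*. In the double mutant against WT, *fat-1* ran from -0.28 to 0.17, *fat-3* from -0.30 to 0.18, *fat-4* from -0.21 to 0.27, *fat-6* from -0.15 to 0.0077, and *fat-7* from -0.48 to 0.28. The cause of these changes was not tested.

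The labels do not say whether equal replicate numbers pair the samples. The deviations of equal numbers were weakly correlated between strains (0.109, 0.158 and -0.163), which cannot settle whether they were handled together. With the replicate block the counts were 1 and 0 (higher and lower) in *daf-2(-)* against WT, 0 and 2 in the double mutant against *daf-2(-)*, and 0 and 0 against WT. A crossed pairing of the last 2 strains, added after the data were seen, gave 0 and 2. Over all genes, limma called 999 genes higher and 1607 lower in *daf-2(-)* against WT, 1621 and 708 after median-ratio scaling, 1319 and 857 after quantile normalization, 2869 lower with a pseudocount of 0.1, 2006 and 4555 with a fold of 1.5, and 753 lower without *daf-2(-)* replicate 2. In the double mutant against *daf-2(-)*, 3267 and 1168 became 1573 and 2061, 1687 and 1722, and, with a fold of 1.5, 5607 and 2102. In the double mutant against WT, 294 and 152 became 192 and 210 with median-ratio scaling, 792 and 406 with a pseudocount of 0.1, 24 and 8 by adjusted p, and 1843 and 546 with a fold of 1.5, and without double mutant replicate 2 383 were lower. With 2 libraries per strain, no limit of detection was computed for the genes that were not called.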

Other observations

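Beside the desaturases, 2 list genes under the 2-fold threshold on the deposited RPKM are described here, picked after their values were seen. Each had both *daf-2(-)* libraries above the other 4. Other uncalled genes of the lists shared this pattern, among them *let-767*, *elo-8* and *nhr-80*. *acdh-11*, an acyl-CoA dehydrogenase that in *C. elegans* limits *fat-7* expression, was at 34.6 and 44.5 RPKM in WT, 73.2 and 69.7 in *daf-2(-)*, and 37.8 and 40.3 in the double mutant. On the log2 scale *acdh-11* differed by 0.85 in *daf-2(-)* against WT (limma adjusted p = 0.0145) and by -0.86 in the double mutant against *daf-2(-)* (limma adjusted p = 0.00684). *cytb-5.1*, a cytochrome b5, was at 270 and 265 RPKM in WT, 391 and 396 in *daf-2(-)*, and 209 and 252 in the double mutant. On the log2 scale *cytb-5.1* differed by 0.56 in *daf-2(-)* against WT (limma adjusted p = 0.0297) and by -0.78 in the double mutant against *daf-2(-)* (limma adjusted p = 0.00572).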
